A study of Mus musculus with 32 samples.

Results

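The tail tendon fascicle, a cable of aligned collagen with its resident cells, was clamped as a core explant inside a collagen-1 hydrogel that held no cells, and cultured for 7 days. Of the 32 RNA sequencing libraries in the series, the 8 from these cell-free cultures are described here: 4 from cores of B6.129S2-Il6tm1Kopf/J Il-6+/+ mice (WT) and 4 from cores of Il-6-/- mice of that line (labelled KO). They were chosen by their labels alone. The mice were male and female and aged 12 to 15 weeks, and the 20 to 24 explants pooled into a library all came from 1 mouse. All 8 were kept in the same medium, which held serum and macrophage-colony stimulating factor. The comparison therefore sets the genotype of the core alone, without added fibroblasts or macrophages. The targeted allele was made in another mouse strain and crossed to C57BL/6, so a difference due to Il6 and one due to linked sequence of the donor strain cannot be told apart.

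Interleukin-6 is a cytokine that binds its receptor (Il6ra) and the signal transducer gp130 (Il6st), which pass the signal on through JAK kinases to STAT3. STAT3 in turn switches on its own inhibitor Socs3 and, in liver above all, acute phase proteins such as serum amyloid A and haptoglobin. Interferons also signal through JAK kinases, and the factors that these switch on bind the interferon-stimulated response element in front of antiviral genes (the Ifit, Oas and Mx families) and of the guanylate-binding (GBP) and immunity-related (IRG) GTPases. In tendon, IL-6 is known as a cytokine released after injury and loading.

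Each library held 20.6 to 41.9 M counts, so that 1 CPM (counts scaled to a common library size) stands for 20.6 counts or more. The labels name the cells tenocyte (mixed). The tendon markers Tnmd (115 to 577 CPM) and Mkx (189 to 245 CPM) were present in every library, and so were the macrophage markers Lyz2 (4320 to 14300 CPM), Csf1r (378 to 1090 CPM) and Adgre1 (267 to 878 CPM). Some other cell types were represented at low summed levels. These were 51.9 to 78.1 CPM over 14 endothelial markers, 4.69 to 26.9 CPM over 13 markers of T, B and NK cells and 5.90 to 10.6 CPM over 7 erythroid markers. Of their defining markers, Pecam1 of endothelium was at most 0.93 CPM, Cd3e of T cells at most 0.154 CPM and the globin Hba-a1 at most 0.0443 CPM. Summed levels were higher for markers of Schwann cells and nerve (604 to 735 CPM) and of synovial tissue (668 to 2140 CPM). They were also higher for markers of osteoclasts (366 to 728 CPM) and of chondrocytes and bone (199 to 340 CPM). The first principal component, which held 41.4% of the variance, did not separate the genotypes. Read from Y-linked counts, 2 libraries of each genotype came from females and 2 from males. The numbers 150, 152 and 154 that head the sample titles, called run codes here, were also balanced, with 1, 2 and 1 library of each genotype.

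Il6 (ENSMUSG00000025746), the targeted gene, was not lower in the cores labelled KO. The 4 WT cores had 7.48, 1.98, 12.2 and 3.98 CPM, and the 4 cores labelled KO had 7.37, 9.17, 6.77 and 21.3 CPM. The groups overlapped, and the highest value belonged to a library labelled KO. On average WT cores had 6.42 ± 4.5 CPM (SD, n = 4) and those labelled KO 11.2 ± 6.84 CPM (SD, n = 4), a log2 fold change of 0.79 with a standard error of 0.54. The adjusted p was 0.9999 in edgeR's quasi-likelihood test, and p was 0.257 in an exact permutation test (two-sided). It depended on single libraries, at a log2 fold change of 1.31 without WT replicate 3 (unadjusted p of 0.0341 from edgeR) and of 0.27 without KO replicate 4 (unadjusted p of 0.604). Counts per gene do not show which part of the transcript the reads came from, so this level does not tell whether a functional message was made. The transcript level is therefore no check on the label. The paper also measured IL-6 protein in the culture medium of cell-free WT and KO cores and of fibroblasts, and reports differences in its level. It refers to reduced IL-6 in assembloids with a KO core. The protein is not part of these counts. Every direction below is drawn between libraries labelled KO and WT.

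The other members of the pathway mostly differed little. Of 21 IL-6 family cytokines, receptors and signalling genes tested, 15 had a higher mean and the median log2 fold change was 0.08, against 0.01 over all genes tested. At an unadjusted p under 0.05 from edgeR, 2 (9.52%) were higher and 0 lower, against 1.18% and 0.927% of all genes. Il6st was 1190, 1280, 1200 and 1300 CPM in WT and 1430, 1410, 1350 and 1440 CPM in the cores labelled KO. Its groups did not overlap, yet the difference was small (log2 fold change 0.18, standard error 0.13, unadjusted p of 0.183 from edgeR). It was named after its values were seen. Il6ra (log2 fold change -0.09), Stat3 (-0.18) and the STAT3 target Socs3 (-0.15) had slightly lower means and overlapping groups. Of the 20 protein-coding genes up to 10 places either side of Il6 in the gene order of the GRCm38.p6 reference, 11 could be tested. All 11 had a higher mean in the cores labelled KO, by a median log2 fold change of 0.07. Tyms, the thymidylate synthase gene next to Il6, was the member with an unadjusted p under 0.05 (log2 fold change 0.44, unadjusted p of 0.0288 from edgeR's fit over all genes, 9.69 to 14.7 CPM in WT and 13 to 19.8 CPM in KO).

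Across 16065 genes tested, edgeR's quasi-likelihood test called 0 (0.0%) at an adjusted p under 0.05 and a log2 fold beyond 0.5, and the lowest adjusted p was 0.554. DESeq2, run on the same counts, called 13 genes (0.0809%), of which 8 were higher and 5 lower in the cores labelled KO. The edgeR fit had no block. With a block for run code and sex, added after seeing the data, edgeR called 8 genes, 6 higher and 2 lower. At an unadjusted p under 0.05 with the same fold, edgeR gave 199 genes (1.24%), 142 higher and 57 lower. Without the fold, 339 genes (2.11%) had an unadjusted p under 0.05, and the threshold alone would give 803. Of the 339, 190 were higher (1.18%) and 149 lower (0.927%). The 4 values of one genotype lay wholly above those of the other in 113 genes (0.703%) for KO and in 139 genes (0.865%) for WT. The median log2 fold change of all genes was 0.01, and 52.9% had a higher mean in KO. The genes described next had the lowest unadjusted p. They did not pass edgeR's adjustment in the fit of these 8 libraries without a block, and those that passed in DESeq2 are given with its adjusted p. Since they were picked on these libraries, their p-values and permutation tests describe the choice and are no independent evidence. The smallest p that the exact permutation test of 4 against 4 can give is 0.0286.

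**Figure D1:**
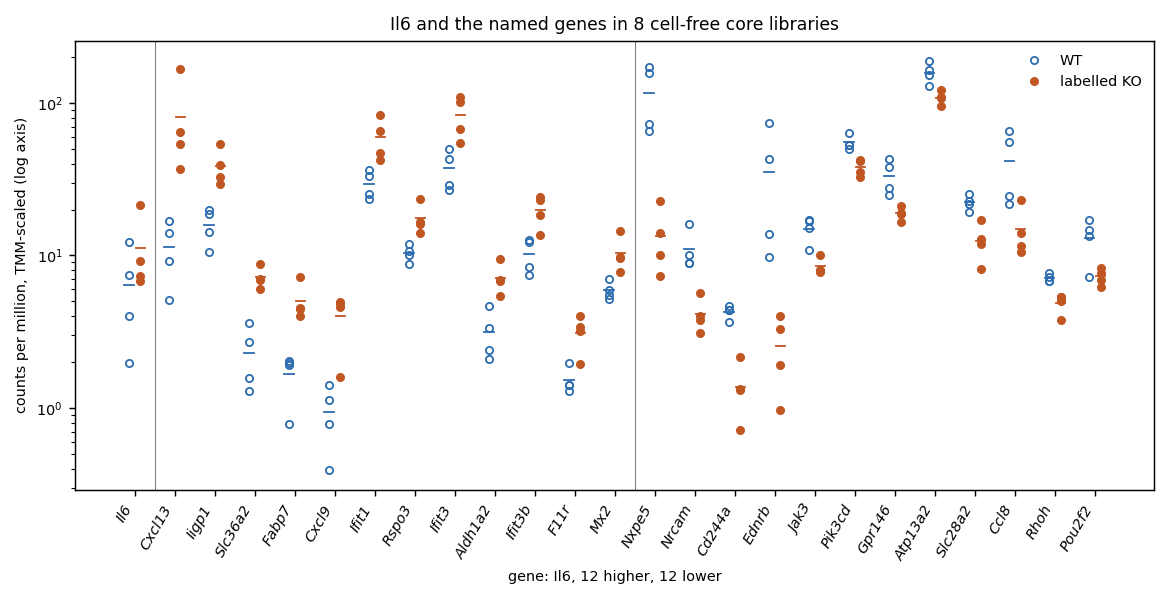
Level of Il6 and of the 24 named genes in each cell-free core library, in CPM after TMM scaling, on a log axis. Open blue circles are the 4 WT libraries, filled orange circles the 4 labelled KO, and bars the group means. Il6 overlaps between the groups, Cxcl13 is 37.0 CPM or more in KO against 16.9 CPM or less in WT, and Nxpe5 is 22.7 CPM or less in KO against 65.6 CPM or more in WT.

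Of the 12 named genes with a higher level in KO, 5 belonged to the lists of interferon-stimulated genes or of GBP and IRG GTPases. They were Ifit1, Ifit3, Ifit3b and Mx2, which restrict viral RNA and capsids, and Iigp1, an IRG GTPase that attacks the vacuoles of parasites. Cxcl9, also among the 12, is a chemokine induced by interferon gamma that draws in T cells. Ifit3 was 28.8, 43.2, 26.9 and 50.0 CPM in WT and 67.6, 54.8, 102 and 109 CPM in KO, without overlap. The log2 fold change was 1.16, with a standard error of 0.27 and a DESeq2 adjusted p of 0.0389. Ifit1 was 25.2, 33.0, 23.6 and 36.3 CPM in WT and 46.9, 42.3, 65.9 and 83.0 CPM in KO (log2 fold change 1.01, standard error 0.23, DESeq2 adjusted p = 0.0436). Here too every library labelled KO lay above every WT library, with KO replicate 2 the lowest of its group. Iigp1 was 10.6, 20, 14.2 and 18.8 CPM in WT and 32.8, 29.2, 39.0 and 53.6 CPM in KO (log2 fold change 1.28, standard error 0.24, DESeq2 adjusted p = 0.00125). Mx2 was 5.19 to 6.99 CPM in WT and 7.80 to 14.4 CPM in KO, with a log2 fold change of 0.81. Cxcl9 was 0.394, 1.42, 0.782 and 1.13 CPM in WT and 4.93, 1.59, 4.89 and 4.59 CPM in KO (log2 fold change 2.11, standard error 0.44, DESeq2 adjusted p = 0.00243). KO replicate 2 lay close to the highest WT library for this gene.

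The interferon-stimulated response element could be read in the sequence before some of these genes. The 250 bases before the start of Ifit1 and Ifit3, which lie near each other on mouse chromosome 19, and of Gbp3 on chromosome 3 are printed from RefSeq on the coding strand of GRCm38.p6, a different assembly from the one used for the counts. Capitals mark TTTCNNTTT, the core of the interferon-stimulated response element, searched on both strands. The genes and this motif were chosen after the values were seen.

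Ifit1, chr19:34640639-34640888, plus strand: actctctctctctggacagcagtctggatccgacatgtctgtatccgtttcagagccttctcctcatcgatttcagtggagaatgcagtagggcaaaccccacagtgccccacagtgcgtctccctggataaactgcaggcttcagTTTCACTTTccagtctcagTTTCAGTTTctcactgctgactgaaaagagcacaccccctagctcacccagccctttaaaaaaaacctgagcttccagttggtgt
Ifit3, chr19:34583279-34583528, plus strand: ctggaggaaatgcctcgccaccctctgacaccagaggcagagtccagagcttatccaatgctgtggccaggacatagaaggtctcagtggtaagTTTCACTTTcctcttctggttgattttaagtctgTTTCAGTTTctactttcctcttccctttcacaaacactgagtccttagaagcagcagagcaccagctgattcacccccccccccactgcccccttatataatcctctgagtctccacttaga
Gbp3, chr3:142559794-142560043, plus strand: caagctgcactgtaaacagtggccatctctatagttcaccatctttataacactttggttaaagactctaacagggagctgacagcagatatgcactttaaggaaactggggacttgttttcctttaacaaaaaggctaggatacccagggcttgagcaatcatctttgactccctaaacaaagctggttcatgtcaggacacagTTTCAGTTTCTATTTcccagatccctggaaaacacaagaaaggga

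Gbp3 has another start in the table, without a match. Both Ifit promoters printed held 2 separate matches, whereas neither start of Ifit2, another member of the family, held one, and the 2 matches before Gbp3 overlapped. Of the 34 interferon-stimulated genes with a promoter in the RefSeq table, 23 (67.6%) held the motif, and so did 9 of 9 GBP and IRG genes. Counted per gene in the same way, the share was 10.8% over all 27025 genes with a promoter in the table and 8.85% over those of the genes tested. Of the 12 named genes with a higher level in KO, 8 had a promoter in the table. The motif was held by 3 of these (37.5%), Ifit1, Ifit3 and Ifit3b, and not by Cxcl13, Cxcl9, Aldh1a2, F11r or Fabp7. Of the 12 named genes with a lower level in KO, 1 (8.33%) held it. The STAT site TTCNNNGAA was found before 4 of the 34 interferon-stimulated genes (11.8%) and 5 of the 9 GBP and IRG genes (55.6%), against 8.13% of all genes. The AP-1 site TGANTCA stood before 10 of the 34 (29.4%) and 2 of the 9 (22.2%), against 7.82% of all genes, and the CRE TGACGTCA and the E-box CACGTG before 0 of either list, against 1.77% and 6.86%. A match describes letters in the window and does not show binding.

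Among the lists with 20 or more tested members, the interferon-stimulated genes had the median furthest from 0. Of the list's 47 tested genes, 42 had a higher mean in KO, 26 of them with an unadjusted p under 0.05 and 12 without overlap between the groups, and 0 were lower at that p. Over all genes tested, 52.9% had a higher mean, 1.18% were higher at that p and 0.703% lay wholly above WT. The median log2 fold change of the list was 0.46, against 0.01 over all genes. Besides the Ifit and Mx genes, Ifi44 was 5.55, 17.1, 9.11 and 14.7 CPM in WT and 21.3, 18.1, 36.6 and 27.1 CPM in KO (log2 fold change 1.15, standard error 0.34). Its groups did not overlap, and KO replicate 3 was the highest. Oasl2, a 2-5A synthetase-like gene, was 27.7 to 42.9 CPM in WT and 48.0 to 83.5 CPM in KO (log2 fold change 0.74). Ddx58, which encodes the RNA sensor RIG-I, was 78.4 to 87.0 CPM in WT and 88.3 to 124 CPM in KO (log2 fold change 0.41). Isg15, a ubiquitin-like modifier, was 3.82, 5.52, 2.48 and 5.64 CPM in WT and 10.0, 4.83, 11.8 and 8.13 CPM in KO, so that KO replicate 2 lay within the WT range. Irf7, a transcription factor that amplifies interferon responses, had a log2 fold change of 0.66 (26.5 to 56.3 CPM in WT and 41.3 to 94.7 CPM in KO), with overlap.

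All 16 GBP and IRG GTPases tested had a higher mean in KO, with a median log2 fold change of 0.66. Of these, 12 (75.0%) had an unadjusted p under 0.05 and 3 did not overlap, against 1.18% and 0.703% of all genes in that direction. At that p, 0 were lower. Gbp3 was 20.9, 28.9, 23 and 44.4 CPM in WT and 54.4, 35.0, 59.9 and 62.4 CPM in KO (log2 fold change 0.85, standard error 0.26). Gbp2 was 28.8, 33.7, 26.9 and 62.9 CPM in WT and 82.8, 38.3, 53.9 and 93.6 CPM in KO (log2 fold change 0.82). In both genes WT replicate 4 was the highest of its group and KO replicate 2 the lowest of its own, which made the groups overlap. Gbp10 had a log2 fold change of 1.86, at 0.0919 to 0.322 CPM in WT and 0.532 to 0.769 CPM in KO, a level of few counts. Reads of the closely related GBP genes may have been split between them, so their single values are uncertain. The count of 12 was 6 without KO replicate 4, 7 without WT replicate 1, WT replicate 3 or KO replicate 3, and 8 without WT replicate 2 or KO replicate 1.

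Neither list rested on a single run code or sex. The median log2 difference of the interferon-stimulated genes was 0.57 between the female and 0.27 between the male libraries, and 0.62, 0.32 and 0.35 within run codes 150, 152 and 154. For the GBP and IRG genes it was 0.64, 0.42, 0.66, 0.46 and 0.48 in the same order. Among libraries, KO replicate 2 stood lowest of its group, at 0.12 above the WT mean for the interferon-stimulated list, below WT replicate 4 (0.21) and level with WT replicate 2 (0.12). Without KO replicate 2, 34 of the 47 interferon-stimulated genes had an unadjusted p under 0.05 and a higher mean, and their median log2 fold change was 0.60. The summed level of 22 macrophage and leukocyte markers was also lowest in that library, at 7960 CPM, with 11900 to 24500 CPM in the other libraries labelled KO and 12600 to 17600 CPM in WT. In bulk RNA, fewer cells of a type and less RNA per cell cannot be told apart, and the part of this in the interferon result was not tested. Of 21 such markers tested, 9 had a higher mean in KO, 1 of them at an unadjusted p under 0.05 (Cx3cr1, the fractalkine receptor, log2 fold change 1.29, 1.33 to 6.99 CPM in WT and 7.08 to 11.6 CPM in KO), and the median log2 fold change was -0.05. The summed counts of the 21 interferon genes in the files were 14 to 33 in WT and 13 to 28 in KO, and those of Ifnb1 were 0, 1, 0 and 0 in WT and 2, 0, 3 and 1 in KO. A difference in the interferons themselves was not detectable at this depth, where 3 counts stand for 0.0715 to 0.145 CPM.

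**Figure D2:**
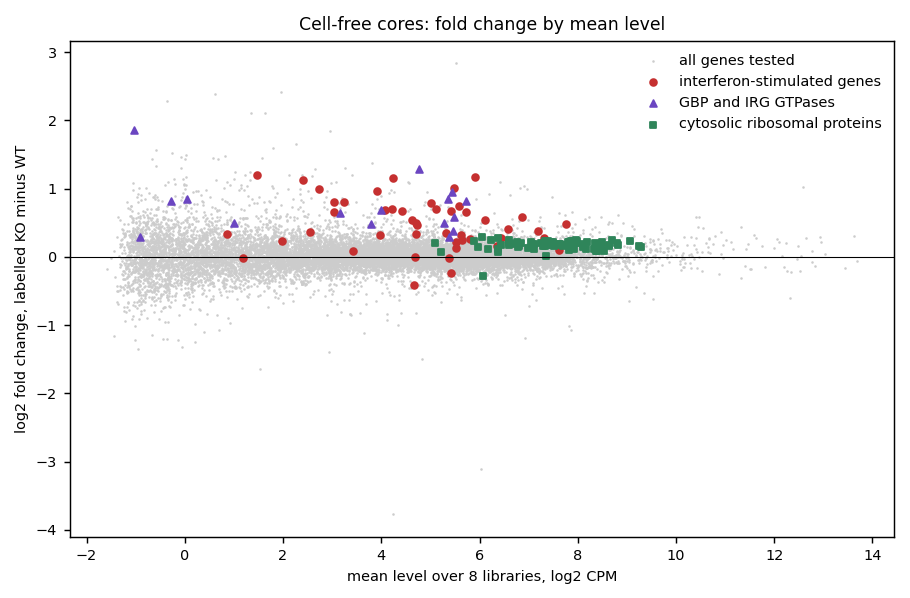
Log2 fold change (KO minus WT) of each of the 16065 genes tested, on the y axis, against its mean log2 CPM over the 8 libraries, on the x axis. Grey points are all genes, red circles the interferon-stimulated genes, purple triangles the GBP and IRG GTPases and green squares the ribosomal protein genes. The red and purple points lie mostly above 0 (medians 0.46 and 0.66), and the green ones form a narrow band at a median of 0.18.

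Chemokines went both ways. Cxcl13, which draws B cells into lymphoid follicles, was 5.08, 16.9, 14 and 9.25 CPM in WT and 167, 64.6, 53.7 and 37.0 CPM in KO. The groups did not overlap, and KO replicate 1 stood highest. The means were 11.3 ± 5.22 CPM (SD, n = 4) in WT and 80.4 ± 58.5 CPM (SD, n = 4) in KO. Its log2 fold change of 2.84 (standard error 0.51, DESeq2 adjusted p = 0.00243) was the largest of the named higher genes. Ccl20, which attracts dendritic and Th17 cells, was 0.905, 3.72, 1.80 and 3.92 CPM in WT and 6.16, 4.70, 5.27 and 7.78 CPM in KO (log2 fold change 1.21). The monocyte chemokine Ccl8 was 65.2, 24.7, 55.7 and 21.9 CPM in WT and 23, 11.5, 14.1 and 10.6 CPM in KO (log2 fold change -1.49, standard error 0.39). KO replicate 1 lay above the lowest WT library, so the groups overlapped by 1 value. Ccl6 had a log2 fold change of -1.19, with 89.9 to 265 CPM in WT and 40.5 to 108 CPM in KO. Of 24 chemokines tested, 18 had a higher mean, 4 were higher and 2 lower at an unadjusted p under 0.05, and the median log2 fold change was 0.28, or 0.04 without KO replicate 4. With the run code as a block, 10 were higher and 3 lower at that p. Without the block, 1.18% of all genes were higher and 0.927% lower at that p, and with it 356 of 16065 were higher and 294 lower.

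The list of STAT3 targets and acute phase genes was not lower in the cores labelled KO. Of 28 tested, 21 had a higher mean, 4 were higher and 0 lower at an unadjusted p under 0.05, and the median log2 fold change was 0.31, or 0.11 without KO replicate 4. With the run code block or without KO replicate 3, 8 were higher at that p. Over all genes, without a block, 1.18% were higher at that p. With the run code block 356 of 16065 genes were higher, and without KO replicate 3 it was 167 of 16266. Saa3, the serum amyloid A made outside the liver, was 2200, 4080, 4380 and 5490 CPM in WT and 7630, 6140, 6370 and 12600 CPM in KO (log2 fold change 1.02, standard error 0.34). Haptoglobin (Hp), which binds free haemoglobin, was 27.5, 94.5, 83.6 and 68.8 CPM in WT and 155, 111, 115 and 136 CPM in KO (log2 fold change 0.91, standard error 0.31). Neither gene overlapped between the groups. Fos, an AP-1 subunit, overlapped at 16.8 to 31.3 CPM in WT and 22.9 to 56.1 CPM in KO. Of 28 NF-kB and inflammatory genes, 23 had a higher mean and 1, Ccl20, an unadjusted p under 0.05, or 11 with the run code block. Their median log2 fold change of 0.29 rested on KO replicate 4, without which it was -0.03.

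The named genes with a lower level in KO were led by Nxpe5, a member of the neurexophilin and PC-esterase domain family. It was 173, 72.3, 158 and 65.6 CPM in WT and 22.7, 14, 10.0 and 7.30 CPM in KO. The groups did not overlap, and the difference was -3.11 on the log2 scale, with a standard error of 0.43. The adjusted p was 0.554 from edgeR (unadjusted 3.45e-05) and 5.58e-11 from DESeq2. With the run code as a block edgeR's adjusted p was 0.0115, and with all 5 core groups in 1 fit it was 0.000418. With a sex block it was 0.977, and with 1 library left out it was 0.322 or more. Ednrb, the endothelin B receptor, was 42.7, 13.8, 73.8 and 9.80 CPM in WT and 3.98, 3.28, 0.962 and 1.92 CPM in KO, a log2 fold change of -3.77 (standard error 0.69, DESeq2 adjusted p = 0.00125). The WT libraries varied widely among themselves (35.0 ± 29.7 CPM, SD, n = 4), yet all lay above the KO libraries. Nrcam, a neuronal cell adhesion molecule, was 9.99, 8.92, 16.1 and 8.95 CPM in WT and 5.67, 3.77, 3.12 and 4.02 CPM in KO (log2 fold change -1.40, DESeq2 adjusted p = 0.000571).

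Some of the other genes with a lower level in KO are, as background, known from leukocytes. Cd244a, an NK cell and myeloid receptor, was 4.37, 4.37, 4.66 and 3.65 CPM in WT and 0.719, 1.33, 2.15 and 1.31 CPM in KO (log2 fold change -1.64, DESeq2 adjusted p = 0.000536). Jak3, the kinase of the common gamma chain cytokine receptors, was 17.2, 16.9, 15.1 and 10.9 CPM in WT and 7.98, 10.1, 7.96 and 7.83 CPM in KO (log2 fold change -0.83, DESeq2 adjusted p = 0.0119). Both sets of libraries were separate, with WT replicate 4 the nearest to KO. Pik3cd, the leukocyte PI3-kinase delta subunit (log2 fold change -0.54, 50.2 to 63.9 CPM in WT and 32.6 to 42 CPM in KO), did not overlap. Pou2f2, the transcription factor Oct2, overlapped through WT replicate 4 (log2 fold change -0.84, 7.20 to 17.1 and 6.18 to 8.31 CPM). Outside this group, Atp13a2, a lysosomal polyamine transporter (-0.55, 130 to 188 and 94.9 to 122 CPM), Gpr146, a G protein-coupled receptor (-0.82, 24.8 to 43.0 and 16.5 to 21.1 CPM), and Slc28a2, a nucleoside transporter (-0.83, 19.3 to 25.3 and 8.11 to 17.1 CPM), did not overlap either.

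The other named higher genes are known from other settings. Slc36a2, a proton-coupled amino acid transporter, was 1.30, 2.71, 3.60 and 1.56 CPM in WT and 6.95, 8.82, 6.00 and 7.04 CPM in KO (log2 fold change 1.65, DESeq2 adjusted p = 0.000536). Fabp7, a fatty acid binding protein of glia, was 0.787, 2.02, 1.97 and 1.90 CPM in WT and 7.19, 4.52, 4.00 and 4.46 CPM in KO (log2 fold change 1.60, DESeq2 adjusted p = 0.00125). Aldh1a2, which makes retinoic acid, was 2.09 to 4.69 CPM in WT and 5.38 to 9.49 CPM in KO (log2 fold change 1.20, DESeq2 adjusted p = 0.0389). For all 3 genes the groups did not overlap. Rspo3, an enhancer of Wnt signalling, had a log2 fold change of 0.77 (8.73 to 11.9 CPM in WT and 14.1 to 23.6 CPM in KO). F11r, a junctional adhesion molecule, overlapped slightly, at 1.29 to 1.96 and 1.95 to 3.98 CPM (log2 fold change 1.03).

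Matrix genes differed little. The median log2 fold change was 0.07 over 28 collagens, 0.08 over 42 matrix proteases, 0.12 over 23 tendon lineage and matrix markers and 0.16 over 44 proteoglycans and matrix glycoproteins. No collagen and no matrix protease had an unadjusted p under 0.05 in edgeR, in either direction. With the run code block 2 collagens were higher, and 2 proteases higher and 1 lower, at that p. Over all genes with that block, 356 of 16065 were higher and 294 lower. Tnc, which encodes tenascin-C of healing tendon, was the tendon marker with an unadjusted p under 0.05 (5 of the 23 with the run code block). It was 92.7, 189, 119 and 211 CPM in WT and 282, 201, 243 and 228 CPM in KO (log2 fold change 0.64, standard error 0.24, unadjusted p of 0.0261 from edgeR). The collagenase Mmp13 was 2300 to 3070 CPM in WT and 2790 to 4070 CPM in KO (log2 fold change 0.32, unadjusted p of 0.125 from edgeR). Biglycan (Bgn), a small leucine-rich proteoglycan, was 816 to 1140 CPM in WT and 1150 to 1410 CPM in KO, a log2 fold change of 0.29. Outside the matrix, Igfbp7, an IGF binding protein, was 317 to 404 CPM in WT and 407 to 743 CPM in KO (log2 fold change 0.61), without overlap. Fabp5, a fatty acid binding protein of macrophages and epidermis, had a log2 fold change of -1.02 (195 to 400 and 84.1 to 261 CPM) and lipoprotein lipase (Lpl) one of 0.61 (114 to 257 and 197 to 316 CPM), both with overlap.

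In 3 lists of widely expressed genes the sign was nearly uniform at a small size. Of 80 ribosomal protein genes, 79 had a higher mean in KO (median log2 fold change 0.18), as did 73 of 77 nuclear oxidative phosphorylation genes (0.16) and 25 of 25 replication-dependent histones (0.32), while 0 genes of these lists had an unadjusted p under 0.05 in edgeR. These differences did not hold within run codes. For the ribosomal genes the median log2 difference was 0.77 within run code 150, -0.02 within 152 and -0.12 within 154, and for the histones it was 1.22, 0.13 and -0.39. Without KO replicate 1 the medians were -0.04, -0.08 and -0.09. Skeletal muscle markers summed to 70.8, 33.5, 27.4 and 10.6 CPM in KO replicates 1 to 4, against 11.1 to 26.6 CPM in WT. Of 7 muscle markers tested, 6 had a higher mean, 1 of them at an unadjusted p under 0.05, with a median log2 fold change of 0.56 (1.02 over 8 without KO replicate 4). The part of this in the other results was not tested. For osteoclast markers, 6 of 8 had a higher mean, with a median log2 fold change of 0.39 and 2 at an unadjusted p under 0.05: Dcstamp, a fusion receptor, at 0.306 to 0.506 CPM in WT and 0.462 to 0.950 CPM in KO, and Acp5, tartrate-resistant acid phosphatase, at 4.92 to 10.2 and 7.92 to 15.7 CPM.

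**Figure D3:**
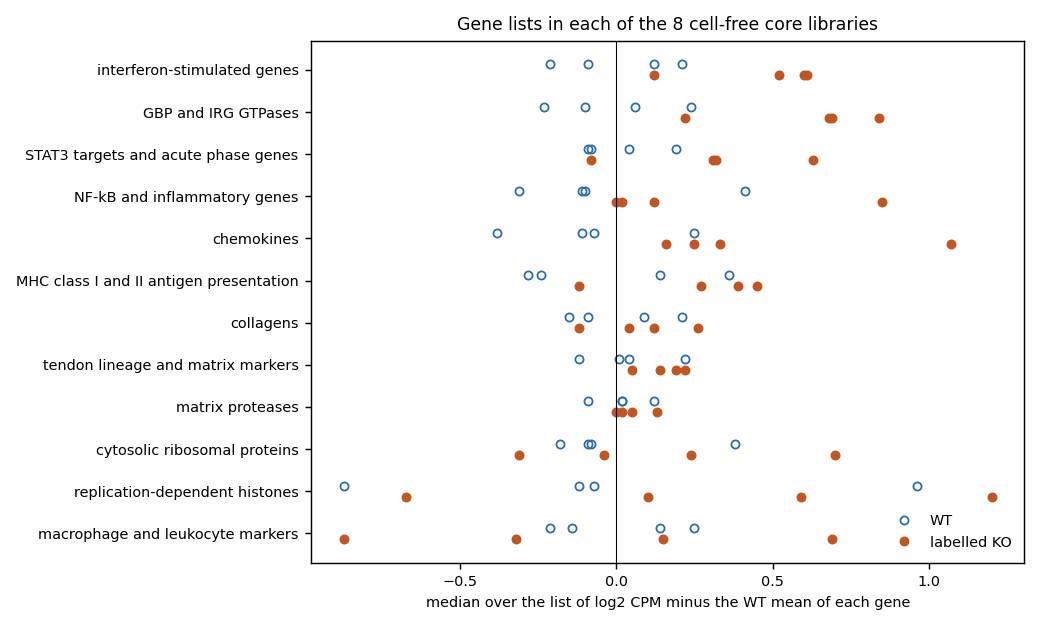
Median over 12 gene lists of log2 CPM minus the WT mean of each gene, on the x axis, for each library, with WT as open blue and KO as filled orange circles. For the interferon-stimulated genes 3 of 4 KO libraries lie at 0.52 to 0.61, above all WT libraries, and KO replicate 2 lies at 0.12, within the WT range. The ribosomal genes and histones spread widely within each group.

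Core explants of the same genotypes cultured beside fibroblasts (4 libraries each) were different libraries. The sources used here do not say whether they came from the same mice, although the sex read from the counts was the same for each replicate number in both cultures. Of the 199 cell-free genes past the unadjusted p and the fold, 190 could be tested there and 157 (82.6%) had the same direction, against 45.2% of all 15826 genes tested in both. This held for 111 of 134 higher (82.8%) and 46 of 56 lower genes (82.1%). Of the 12 named lower genes, 10 had the same direction and 6 an unadjusted p under 0.05 from edgeR. Over all 16088 genes tested beside fibroblasts, 747 were higher and 681 lower at that p. Nxpe5 was 92.8 ± 6.72 CPM (SD, n = 4) in WT and 53.1 ± 13.9 CPM (SD, n = 4) in KO beside fibroblasts, a log2 fold change of -0.81. Ednrb (-1.66), Ccl8 (-1.21), Cd244a (-0.91), Nrcam (-0.66) and Slc28a2 (-0.63) were also lower there. None of these passed edgeR's adjusted p beside fibroblasts, where the lowest was 0.0723, for Fos. With a replicate block 3 genes passed there, Ccl8 (adjusted p = 0.0287 from edgeR), Plekhg4 (log2 fold change -1.42) and, higher in KO, Fos (0.91).

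The interferon-stimulated and the GBP and IRG lists had smaller median log2 fold changes beside fibroblasts. Of the 12 named higher genes, 11 had the same direction there and 1 (F11r, log2 fold change 0.69) an unadjusted p under 0.05. Ifit1 and Ifit3 had log2 fold changes of 0.06 and 0.21, and Cxcl13 one of -0.95. The interferon-stimulated list had a median log2 fold change of 0.07 beside fibroblasts, with 0 of 47 genes at an unadjusted p under 0.05 in either direction. The GBP and IRG genes had one of 0.14, with 1 of 13 higher. Over all 16088 genes tested there, 747 were higher and 681 lower at that p. Other lists kept their medians more closely. The STAT3 and acute phase list had 0.30 (8 of 28 higher at that p), the NF-kB list 0.33 (11 of 28 higher) and the chemokines 0.19 (2 of 23 higher and 1 lower). In the test of the difference itself, between the KO minus WT effects of the 2 cultures, 0 of 16772 genes were called at an adjusted p under 0.05 and a difference beyond 0.5 in edgeR (lowest adjusted p = 0.985, with 504 genes at an unadjusted p under 0.05, 294 of them also beyond 0.5). The difference, fibroblast minus cell-free, had a median of -0.37 over the interferon-stimulated genes, 5 of which had an unadjusted p under 0.05. The named genes were picked on their cell-free values, so a smaller value beside fibroblasts does not show that the cultures differ.

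**Figure D4:**
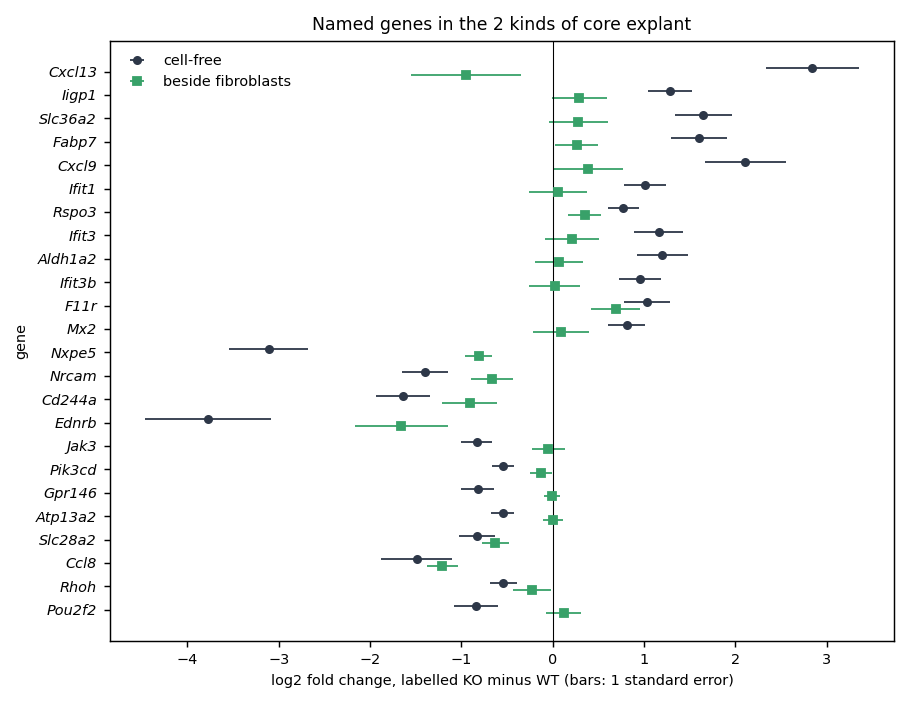
Log2 fold change (KO minus WT) of the 24 named genes in cell-free cores (black circles) and in cores beside fibroblasts (green squares), with bars of 1 standard error from edgeR. The genes were chosen on the cell-free values. Of the 24, 21 point the same way in both, and Cxcl13 is 2.84 in one and -0.95 in the other.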

How the data were processed

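Per the study's methods, RNA was isolated from core explants pooled per mouse and sequenced as ribosome-depleted stranded libraries. RNA with an integrity number of 2 or more was kept. The submitters' processing notes name kallisto 0.46.1, with which the authors made the estimated counts, and the assembly GRCm39. No annotation release is named there or in the methods. The deposited values are estimated counts, not normalized, for 25700 genes, of which 25587 had a symbol in the annotation used here.

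After rounding, filterByExpr removed low genes, TMM set the scale, and edgeR (version 4.0.16, R 4.3.3) compared KO with WT by its quasi-likelihood test over the 8 cell-free libraries without a block. The adjustment is Benjamini-Hochberg over all genes tested. Standard errors were derived from the log2 fold change and the F statistic. The fits beside fibroblasts and of the difference between cultures used the same steps. Within-run and within-sex differences are of log2(CPM + 0.5). Single genes were compared with an exact permutation test, two-sided, of log2 CPM (prior count 2). The floors given as 3 counts cover counting error only, while standard errors and SDs include the spread between libraries.

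Named genes were Il6, the 12 higher and 12 lower genes with the lowest p among those beyond 0.5 in log2 fold and at 1 or more in mean log2 CPM (unnamed gene models left out, and none passing the adjustment), up to 4 genes of each list described with the lowest p, and the neighbours of Il6. Genes outside this rule were named after their values were seen. The comparison, the lists and the motifs were chosen with earlier results of these data known. Of 56 lists drawn up, those with a result of interest or a role in tendon are described. The median log2 fold changes not given above stood between -0.09 and 0.31, the highest being that of the T, B and NK markers, with 2 genes tested. Alternatives were DESeq2 (version 1.42.0), RLE scaling, other filters and thresholds, blocks for replicate number, run code and sex, all 5 core groups in one fit, and each library left out. The test was checked on simulated counts with 200 changed genes. At an adjusted p under 0.05 it recovered 5.97% of those with a true log2 fold change of 0.5. It recovered 71.6% of those at 1 and 98.5% of those at 2, with 9 false calls. Changes near 0.5 could therefore be missed. The simulated libraries were independent, without run code or sex differences, and the changed genes had a mean log2 CPM above 1. The recovered shares therefore need not hold for the data, where larger changes could be missed too. Nxpe5, at a log2 fold change of -3.11, had an adjusted p of 0.554 from edgeR. Hydrogel libraries were not used here, cores beside macrophages entered only the fit of all 5 core groups, and 1 locus is not reported.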

Additional observations from a re-analysis of the deposited data

Results flagged for a closer look

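In 80 groups of 4 values (the 25 named genes, 14 list sums and the library totals in each genotype), 9 held a library whose gap to its nearest neighbour was large for the group's range by Dixon's criterion, where chance gives about 1 in 20. In the libraries labelled KO, replicate 4 stood apart for Il6 (21.3 CPM against 6.77 to 9.17 CPM in the other 3) and for the summed NF-kB and inflammatory genes (3480 CPM against 1890 to 2010 CPM). KO replicate 2 stood apart for the summed interferon-stimulated genes (1850 CPM against 2660 to 2760 CPM), for Cxcl9 (1.59 CPM against 4.59 to 4.93 CPM) and for Jak3 (10.1 CPM against 7.83 to 7.98 CPM). Its interferon sum lay within the WT range of 1640 to 2080 CPM. KO replicate 1 stood apart for Fabp7 (7.19 CPM against 4.00 to 4.52 CPM). In WT, replicate 1 stood apart for Fabp7 (0.787 CPM against 1.90 to 2.02 CPM), replicate 3 for Nrcam (16.1 CPM against 8.92 to 9.99 CPM) and replicate 4 for the summed ribosomal protein genes (20900 CPM against 14200 to 15200 CPM). No explanation was tested for any of these.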

How the results depend on the processing

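The count of genes past the adjusted p was 0 in edgeR and stayed 0 with RLE scaling, no filter, at least 10 counts in every library, no fold threshold, a sex block and each library left out (lowest 0, highest 0). It was 13 with DESeq2, 199 with the unadjusted p, and 1 (Nxpe5) with the run code block or with all 5 core groups in 1 fit. The replicate block gave 1 gene, also Nxpe5, but replicate numbers were not taken to pair the libraries, since the residual correlations of same-numbered libraries were 0.143, 0.228, -0.00136 and 0.447. A run code and sex block, added after seeing the data, gave 8 genes, 6 higher (Ifit1, Ifit3, Ifit3b and Iigp1 among them) and 2 lower. The 199 genes at an unadjusted p were 416 with no filter, 317 with the run code block, 320 with the run code and sex block and 132 to 399 with 1 library left out (132 without WT replicate 1, 399 without WT replicate 4, 315 without KO replicate 2). Il6 had a log2 fold change of 0.27 to 1.31 with 1 library left out, 1.31 without WT replicate 3 being the value with an unadjusted p under 0.05. All 24 named genes other than Il6 kept an unadjusted p under 0.05 and their direction in every alternative, but they were chosen on these libraries. With the replicate block, 3 genes rather than 0 passed the adjusted p beside fibroblasts, 154 of 190 genes had the same direction beside fibroblasts, and 0 genes passed for the difference between cultures. With 1 library left out, the median of the interferon-stimulated genes was 0.38 to 0.60 and that of the GBP and IRG genes 0.54 to 0.85, while those of the NF-kB genes (-0.03 to 0.38) and ribosomal genes (-0.04 to 0.33) crossed 0. At this depth, 3 counts stood for 0.0715 to 0.145 CPM, so genes near that level (the interferons, Cd3e) could not be compared. Where these results moved, the cause was not tested.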
